A study of Homo sapiens with 6 samples.

Results

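The 10 genes described here encode the 4 latent TGF-β binding proteins (LTBP1, LTBP2, LTBP3, LTBP4), the 3 TGF-β ligands (TGFB1, TGFB2, TGFB3) and the 3 TGF-β receptors (TGFBR1, TGFBR2, TGFBR3). They were chosen by name from the 64253 Ensembl identifiers of a table of read counts, and all 10 were found and had enough counts to be tested. The table covers 6 poly(A) RNA libraries of NCI-H1299 (H1299), an established human lung cancer cell line. In 3 libraries the cells overexpressed MTSS1, a membrane-binding scaffold protein that acts on actin, and the other 3 came from H1299 wild type cells. The protocol, worded alike for all 6 libraries, names an MTSS1 plasmid with an mCherry tag, selection with hygromycin and flow sorting, and it does not say how wild type cells were handled or whether the replicates were separate cultures. P-values therefore measure the spread between these libraries, which may be technical. Cells given an empty or control plasmid are not among the 6 libraries, so an effect of MTSS1 cannot be told apart from one of the tag, the selection or the sorting. The series' title concerns NF-κB activity and phosphorylation of RelA, which read counts do not measure. The comparison made here is the level of TGF-β pathway transcripts in MTSS1-overexpressing against wild type cells.

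TGF-β is made as a precursor whose propeptide stays bound to the cleaved cytokine and keeps it latent. In most cells the propeptide is tied by disulfide bonds to a latent TGF-β binding protein, which carries the complex into the extracellular matrix and stores it on fibrillin and fibronectin fibres. Integrins, thrombospondin and proteases release the active ligand, which assembles type II and type I receptor kinases, and these phosphorylate SMAD2 and SMAD3. In carcinoma cells the pathway is known both for arresting the cell cycle and for inducing matrix and migration genes.

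Of the 10 genes, 3 fell in MTSS1-overexpressing cells: LTBP2, LTBP3 and the type II receptor gene TGFBR2, each to between 0.607 and 0.729 of its wild type level. None rose, and 7 did not pass the test, which was edgeR's quasi-likelihood test. Its p-values were adjusted by Benjamini-Hochberg over the 16091 genes tested, and a gene was called under 0.05. At an unadjusted p under 0.05, LTBP1 also lay higher and TGFB2 lower. Over all tested genes the same rule called 4.28% in either direction, 1.82% as higher and 2.45% as lower. The median log2 fold change of the 10 genes was -0.07, against 0.005 for all tested genes. Every fold change is that of MTSS1-overexpressing over wild type cells. Levels are in CPM, counts relative to library size after TMM scaling of the libraries, and replicates are numbered within each group. In bulk RNA, fewer cells with a transcript and less of it per cell cannot be told apart.

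Libraries held between 13883380 and 25741708 counts in overexpressing cells and between 19018751 and 29479453 in wild type cells, and replicate 1 was the smallest in each group. Both replicates numbered 1 stood apart from the other 4 libraries on the first principal component, with 34.8% of the variance, while overexpressing and wild type libraries parted on the second (32.9%). The overexpressed gene, MTSS1 (ENSG00000170873, chromosome 8) checked the labels with 550.3, 544.2 and 568.1 CPM in overexpressing and 24.2, 18.0 and 24.3 CPM in wild type libraries. Of the markers of the labelled lung adenocarcinoma, the surfactant genes SFTPA1 and SFTPB were listed at 0 counts in all 6 libraries and SFTPC had 1 count. The lung transcription factor gene NKX2-1 stood at 2.63 ± 0.286 CPM in overexpressing and 1.20 ± 0.508 CPM in wild type cells (SD, n = 3 each; edgeR adjusted p = 0.12). KRT7 of the same list stood at 1.77 and 0.857 CPM on average (edgeR adjusted p = 0.16). NAPSA was too scarce to be tested, with 13 counts over the overexpressing and 24 over the wild type libraries. Fibroblast markers summed to 2.08 to 4.73 CPM in overexpressing and 2.28 to 2.71 CPM in wild type libraries, and leukocyte and endothelial markers to 1.32 to 2.73 and 2.23 to 4.2 CPM. Of 4 genes known in HEK293T, a cell line that the labels mention in connection with the plasmid, PAX2 had 2 and 6 counts over the overexpressing and wild type libraries, while the 4 together summed to 179 to 192 and 144 to 197 CPM, nearly all of it INA. Keratins KRT8 and KRT18, which made up nearly all of the epithelial marker sum, brought it to 254 to 466 CPM in overexpressing and 569 to 851 CPM in wild type cells, without overlap, and the part of that difference in the results below was not tested. KRT8 itself fell by 1.74 on the log2 scale (edgeR adjusted p = 0.011), a larger change than that of any of the 10 genes. Without MTSS1 overexpressing replicate 3 its call was lost (edgeR adjusted p = 0.055). KRT18, the more abundant keratin, had a log2 fold change of -0.80 and did not pass (edgeR adjusted p = 0.061). EPCAM of the same list was scarce and lay the other way, at 0.881 ± 0.0738 CPM in overexpressing and 0.557 ± 0.139 CPM in wild type cells (edgeR adjusted p = 0.44).

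**Figure D1:**
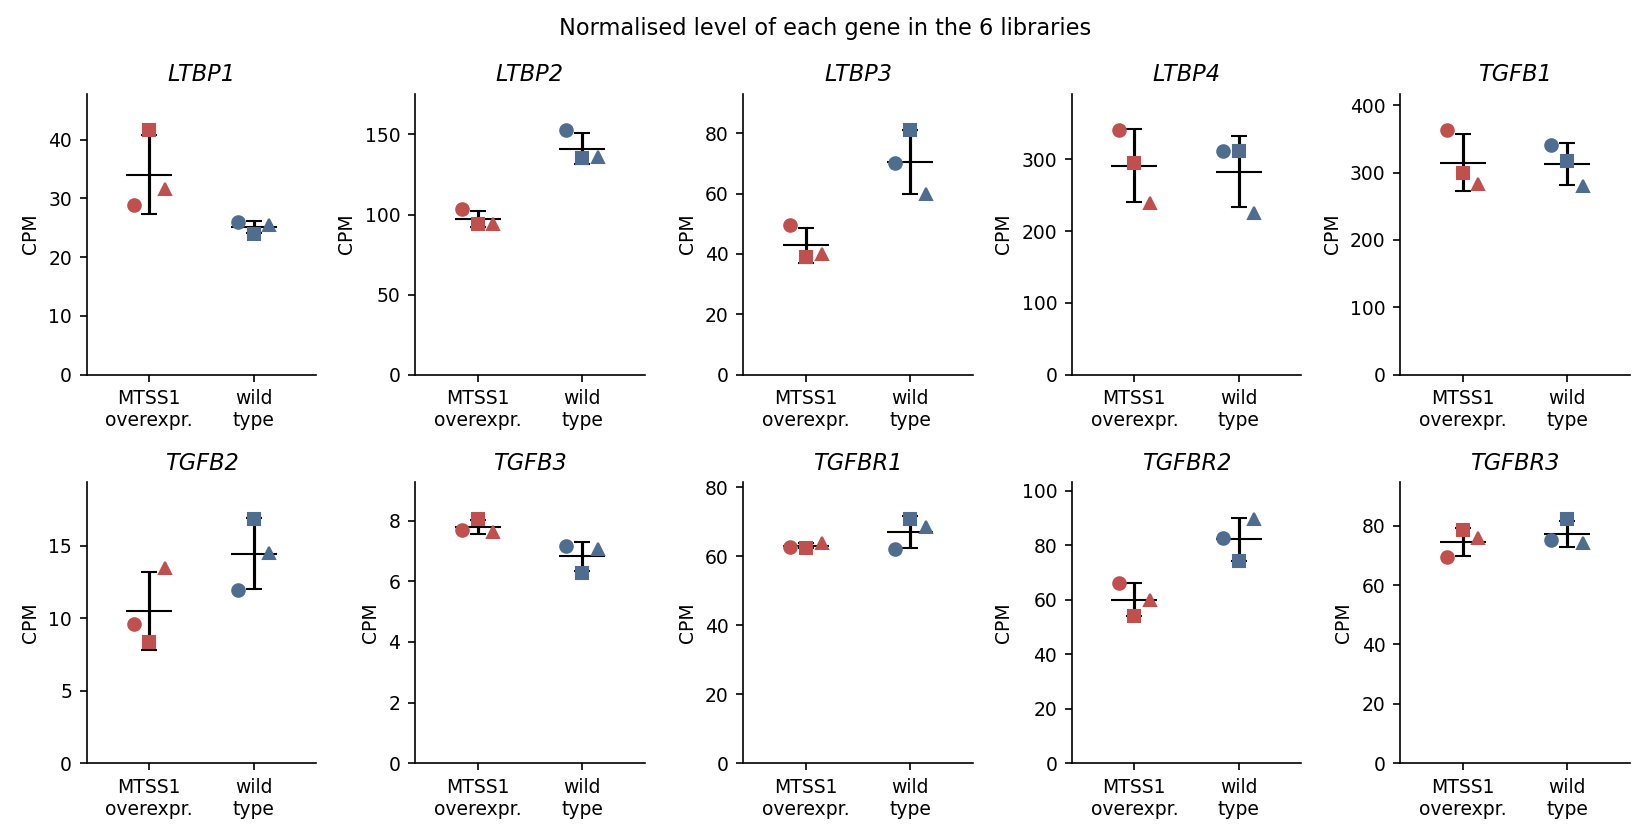
Level of each of the 10 genes in CPM (linear axes from 0), with MTSS1-overexpressing libraries in red on the left and wild type libraries in blue on the right of each panel. Points are libraries (circle, square and triangle for replicates 1, 2 and 3), and bars give the mean and SD. LTBP2, LTBP3 and TGFBR2 were lower in all 3 overexpressing libraries than in any wild type library, while LTBP4, TGFB1, TGFB2, TGFBR1 and TGFBR3 overlapped between the groups.

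The 3 lowered genes lie on different chromosomes. Their promoter windows are shown with that of LTBP1, the paralog that lay above wild type in all 3 overexpressing libraries, to set the called genes beside the LTBP that lay on the other side. The windows are RefSeq's on GRCh38.p14 and run from 250 bases before to 50 bases after a transcript start, in the direction of transcription. For a gene with several starts, the window nearest the gene's 5′ end in GENCODE release 29 was taken. Capitals mark matches on either strand to GGGCGG, the GC box bound by SP1-type factors, to CAGAC, the SMAD box, and to TGANTCA, the AP-1 site. LTBP2 is read from chr14:74612188-74612487 (minus strand), LTBP3 from chr11:65558310-65558609 (minus strand), TGFBR2 from chr3:30606351-30606650 (plus strand) and LTBP1 from chr2:32946703-32947002 (plus strand).
LTBP2: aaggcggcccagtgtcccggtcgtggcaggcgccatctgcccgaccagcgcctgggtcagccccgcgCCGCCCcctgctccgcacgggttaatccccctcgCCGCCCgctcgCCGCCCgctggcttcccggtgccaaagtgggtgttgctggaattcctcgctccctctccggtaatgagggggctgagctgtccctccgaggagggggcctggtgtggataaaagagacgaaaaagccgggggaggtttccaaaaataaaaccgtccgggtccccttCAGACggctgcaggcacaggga
LTBP3: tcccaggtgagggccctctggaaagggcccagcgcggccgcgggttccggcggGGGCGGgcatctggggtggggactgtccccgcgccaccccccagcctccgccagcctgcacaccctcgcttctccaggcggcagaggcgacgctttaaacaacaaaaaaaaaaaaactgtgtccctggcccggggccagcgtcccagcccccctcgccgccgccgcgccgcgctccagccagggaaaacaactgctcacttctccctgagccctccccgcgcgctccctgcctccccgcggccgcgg
TGFBR2: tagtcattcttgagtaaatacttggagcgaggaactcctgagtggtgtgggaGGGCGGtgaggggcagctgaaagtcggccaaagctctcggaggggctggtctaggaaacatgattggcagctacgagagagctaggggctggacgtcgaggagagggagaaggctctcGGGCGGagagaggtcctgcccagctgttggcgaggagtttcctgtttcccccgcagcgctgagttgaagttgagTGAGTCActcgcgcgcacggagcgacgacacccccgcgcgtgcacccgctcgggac
LTBP1: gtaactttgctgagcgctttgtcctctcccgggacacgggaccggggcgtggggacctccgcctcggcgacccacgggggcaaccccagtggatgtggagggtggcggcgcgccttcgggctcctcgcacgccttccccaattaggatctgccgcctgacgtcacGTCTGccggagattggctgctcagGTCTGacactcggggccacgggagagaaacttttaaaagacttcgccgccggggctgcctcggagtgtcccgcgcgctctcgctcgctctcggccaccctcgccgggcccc

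G and C made up 67.0% of the LTBP2 window, 72.0% of that of LTBP3, 61.7% of that of TGFBR2 and 68.7% of that of LTBP1. Over all 35116 windows of the RefSeq table the median was 58.7% and the quartiles 47 and 68%, so that LTBP2 and TGFBR2 lay between the quartiles and LTBP3 and LTBP1 above them. The GC box occurred 3 times in the LTBP2 window, once in that of LTBP3, 2 times in that of TGFBR2 and not in that of LTBP1, and 45.0% of all windows held at least 1. The SMAD box was found once in the LTBP2 window, 2 times in the LTBP1 window and in neither of the others. It is a short motif that 45.3% of all windows held. The AP-1 site stood in the TGFBR2 window alone of the 4, and in 7.71% of all windows. Matches depend on the start chosen. The second LTBP3 window (chr11:65558179-65558478) held 1 SMAD box. The other TGFBR2 window (chr3:30606106-30606405) held 0 GC boxes and 0 AP-1 sites. GC boxes were not particular to the called genes. Of members that did not pass, TGFB1 had 7 in its window, TGFBR3 2, and LTBP4 1 and 6 in its windows. The windows of TGFBR1 held 0 to 6, and those of TGFB2 and TGFB3 held 0. These matches describe letters in a window and not the binding of a factor.

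LTBP2 and LTBP3 were the latent TGF-β binding protein genes that fell. LTBP2 (ENSG00000119681, chromosome 14, 74498170 to 74612378, minus strand, GRCh38) encodes the member of the family that does not bind latent TGF-β and works in microfibrils and elastic fibres. It stood at 103.2, 94.2 and 94.2 CPM in overexpressing libraries, against 152.7, 135.3 and 135.7 CPM in wild type libraries. The highest overexpressing library lay well under the lowest wild type library. The log2 fold change was -0.54 (SE 0.08, 95% interval -0.73 to -0.35, edgeR adjusted p = 0.011), and the difference within the pairs of libraries with neighbouring title numbers was nearly constant at -0.57, -0.52 and -0.53. Leaving out MTSS1 overexpressing replicate 2 (edgeR adjusted p = 0.051) or 3 (0.059) ended the call, which the other 4 fits that left out 1 library kept. The 6 fits that each left out 1 library called 0.874, 1.18, 1.51, 1.96, 2.06 and 2.1% of their genes, with fewer libraries to test. An unnamed noncoding gene on the opposite strand overlaps 207 of its 9091 exon bases.

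LTBP3 (ENSG00000168056, chromosome 11, 65538805 to 65558930, minus strand) encodes a protein that binds latent TGF-β and is needed for its secretion. It had the largest fold change of the 10 genes in either direction. Overexpressing libraries stood at 49.57, 39.05 and 40.02 CPM, against 70.32, 81.04 and 59.8 CPM in wild type libraries. The wild type libraries spread more widely, yet the lowest of them stayed above the highest overexpressing library. LTBP3 thus had a log2 fold change of -0.72 (SE 0.13, 95% interval -1.02 to -0.42, edgeR adjusted p = 0.022). Without MTSS1 overexpressing replicate 2 or 3 or wild type replicate 2 the edgeR adjusted p was 0.086, 0.090 and 0.066, and the fold change stayed between -0.83 and -0.61 when any 1 library was left out.

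LTBP1, the founding member of the family and a covalent carrier of latent TGF-β (ENSG00000049323, chromosome 2, 32946972 to 33399509, plus strand), lay on the other side. It stood at 28.9, 41.6 and 31.7 CPM in overexpressing and at 25.9, 24.0 and 25.5 CPM in wild type libraries. The groups did not overlap, but replicate 2 of the overexpressing libraries stood well above the other two. At 0.44, its log2 fold change (SE 0.14, 95% interval 0.12 to 0.76) did not pass the test (edgeR adjusted p = 0.12). It did pass when the pairs of neighbouring title numbers entered as a block (edgeR adjusted p = 0.016), in a fit that called 22.7% of all tested genes. Without MTSS1 overexpressing replicate 2 the log2 fold change was 0.28. An antisense gene overlaps 249 of its 7329 exon bases.

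LTBP4 (ENSG00000090006, chromosome 19, 40592883 to 40629818, plus strand), which carries latent TGF-β and takes part in elastic fibre assembly, was the most abundant of the 4 per length. Its CPM of 340.5, 294.3 and 238.7 in overexpressing libraries and 311.8, 311.1 and 225.5 in wild type libraries overlapped, with replicate 3 the lowest in both groups. Its log2 fold change was 0.04 (95% interval -0.31 to 0.39, edgeR adjusted p = 0.92).

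Because the 4 genes did not move together, their balance was read within each library as counts per kilobase of annotated exon. LTBP4 made up 67.6, 64.7 and 61.3% of the family's counts per kilobase in overexpressing and 58.6, 59.6 and 53.5% in wild type libraries. LTBP2 made up 18.3, 18.5 and 21.6%, against 25.6, 23.1 and 28.7% in wild type. LTBP3 made up 7.75, 6.76 and 8.10%, against 10.4, 12.2 and 11.2% in wild type. For these 3 genes the shares did not overlap between the groups (exact permutation test, two-sided, unadjusted p = 0.1 for each). They are not among the 3 shares adjusted below. The LTBP1 share was 6.357, 10.12 and 8.998% in overexpressing and 5.392, 5.082 and 6.685% in wild type libraries, which overlapped. Its mean was 2.77 percentage points higher in overexpressing cells (exact permutation test, two-sided, p = 0.2, and 0.3 adjusted over the 3 shares tested), in a design whose smallest possible p is 0.1. Each library's shares rest on counts of the same library and so need no scaling between libraries. They are parts of one whole, so the higher LTBP4 share goes with the lower LTBP2 and LTBP3 shares. The level of LTBP4 itself did not pass the test (log2 fold change 0.04, edgeR adjusted p = 0.92). The size of each share depends on the length used. Per kilobase of annotated exon, LTBP3 and LTBP2 stood at 6.83 and 15.5 CPM in wild type cells. With the longest annotated transcript they stood at 15.8 and 16.5.

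**Figure D2:**
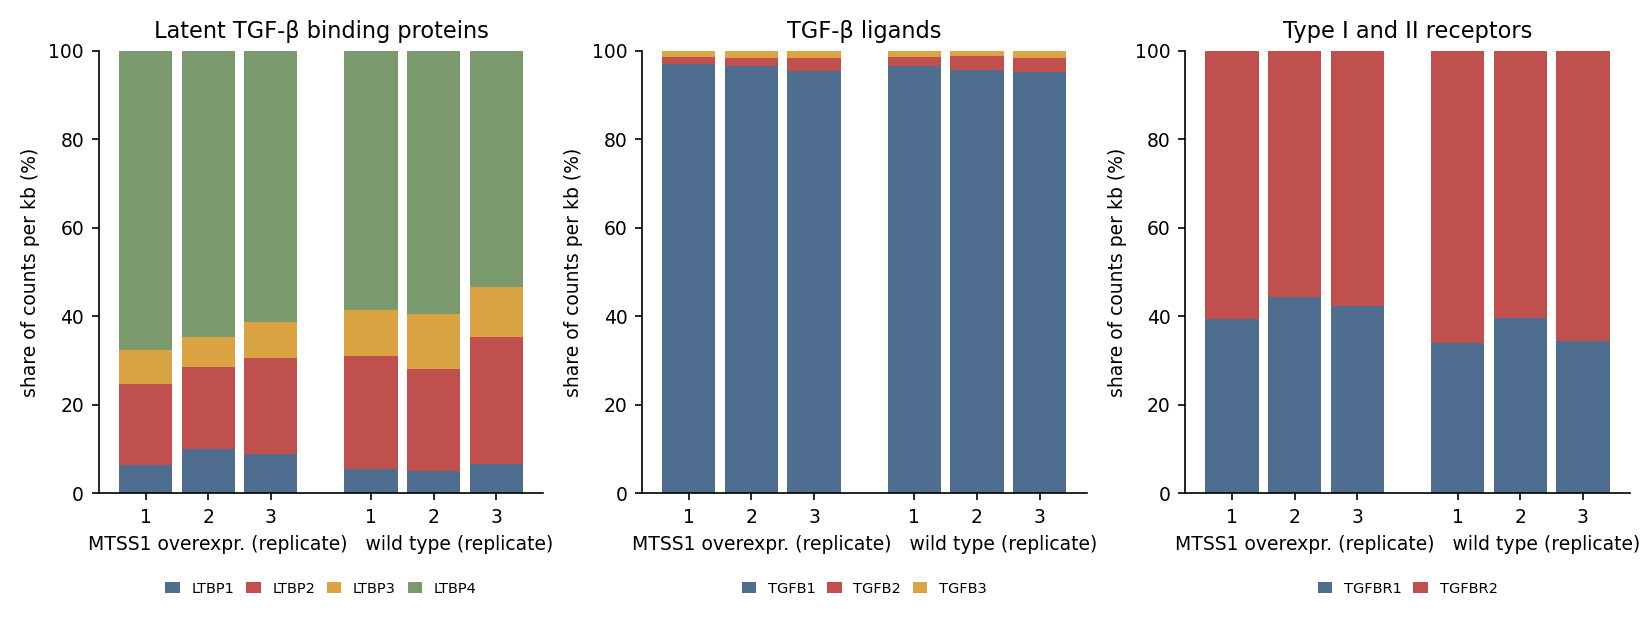
Share of each gene in the counts per kilobase of its family (%), by library, with MTSS1-overexpressing replicates 1 to 3 left of wild type replicates 1 to 3 in each panel. LTBP4 filled 61.3 to 67.6% of the LTBP bars in overexpressing and 53.5 to 59.6% in wild type cells, and TGFB1 over 95% of every ligand bar. Shares in a bar are parts of one whole and do not move independently, and their size depends on the gene length used.

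None of the 3 ligand genes passed the test. TGFB1, the ligand of most epithelia and immune cells (ENSG00000105329, chromosome 19, 41301587 to 41353911, minus strand), stood at 362.9, 298.7 and 282.3 CPM in overexpressing libraries. Wild type libraries stood at 340.8, 317.6 and 279.7 CPM, within nearly the same span. Its log2 fold change was 0.01 (SE 0.11, 95% interval -0.25 to 0.26, edgeR adjusted p = 0.98). TGFB1 provided 97.0, 96.6 and 95.4% of ligand counts per kilobase in overexpressing and 96.5, 95.6 and 95.3% in wild type libraries, a mean difference of 0.545 percentage points (exact permutation test, two-sided, p = 0.4, also 0.4 adjusted over the 3 shares). Of its annotated exon bases, 215 of 3238 overlap HNRNPUL1 on the opposite strand, and the strand setting of the counting is not given in the sources used here.

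TGFB2 (ENSG00000092969, chromosome 1, 218346235 to 218444619, plus strand), the ligand that depends most on TGFBR3 for receptor binding, was scarce. It had 9.62, 8.379 and 13.49 CPM in overexpressing and 11.98, 16.87 and 14.53 CPM in wild type libraries. The groups overlapped through overexpressing replicate 3 and wild type replicate 1, although each of the 3 neighbouring pairs had the lower value in overexpressing cells. The log2 fold change was -0.46 (SE 0.20, 95% interval -0.92 to -0.01, edgeR adjusted p = 0.24), as large as that of TGFBR2 but with a wider interval. TGFB2 shares 1371 of its 5151 exon bases with TGFB2-OT1, a noncoding transcript annotated on the same strand, so reads there may be counted for either gene or for none.

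TGFB3 (ENSG00000119699, chromosome 14, 75958099 to 75982991, minus strand), known for its part in palate fusion, was the least abundant ligand by CPM. Overexpressing libraries had 7.71, 8.07 and 7.65 CPM and wild type libraries 7.16, 6.29 and 7.06 CPM. The groups did not overlap, but lay close together. TGFB3-AS1, an antisense gene, overlaps 163 of its exon bases. A log2 fold change of 0.19 (SE 0.15, 95% interval -0.15 to 0.54) did not pass the test (edgeR adjusted p = 0.55). With LTBP1 it is one of 2 members whose overexpressing libraries all lay above wild type. With the 3 that lay below, 5 of 10 members did not overlap between the groups, where 25.5% of all tested genes did not.

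Of the receptor genes, TGFBR2 fell. TGFBR2 (ENSG00000163513, chromosome 3, 30606502 to 30694142, plus strand) encodes the type II receptor, the kinase that binds ligand first and phosphorylates the type I receptor. It stood at 66.1, 53.8 and 59.9 CPM in overexpressing libraries, against 82.5, 74.1 and 89.7 CPM in wild type libraries. No overexpressing library reached the lowest wild type library. The log2 fold change was -0.46 (SE 0.11, 95% interval -0.69 to -0.22, edgeR adjusted p = 0.044), and the neighbouring pairs differed by -0.32, -0.46 and -0.58. In fits without the block the call rests on all 6 libraries: it was lost whichever one was left out, with edgeR adjusted p between 0.054 and 0.16.

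TGFBR1 (ENSG00000106799, chromosome 9, 99104038 to 99154192, plus strand) encodes the type I kinase, which passes the signal to SMAD2 and SMAD3. It had 62.8, 62.4 and 63.8 CPM in overexpressing and 61.99, 70.92 and 68.55 CPM in wild type libraries. Its overexpressing libraries lay close together and inside the wild type range. For TGFBR1 the log2 fold change was -0.09 (95% interval -0.28 to 0.09, edgeR adjusted p = 0.61). TGFBR3 (ENSG00000069702, chromosome 1, 91680343 to 91906335, minus strand) encodes betaglycan, a coreceptor without a kinase that presents ligand to TGFBR2. Its CPM of 69.47, 78.64 and 75.77 in overexpressing and 75.04, 82.36 and 74.18 in wild type libraries overlapped. TGFBR3 had a log2 fold change of -0.05 (95% interval -0.24 to 0.14, edgeR adjusted p = 0.82).

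Within the pair of signalling receptors, TGFBR2 made up 60.5, 55.64 and 57.73% of counts per kilobase in overexpressing and 65.95, 60.31 and 65.56% in wild type libraries. The groups touched, since overexpressing replicate 1 lay just above wild type replicate 2. The mean difference was -5.98 percentage points (exact permutation test, two-sided, p = 0.2, and 0.3 adjusted over the 3 shares).

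**Figure D3:**
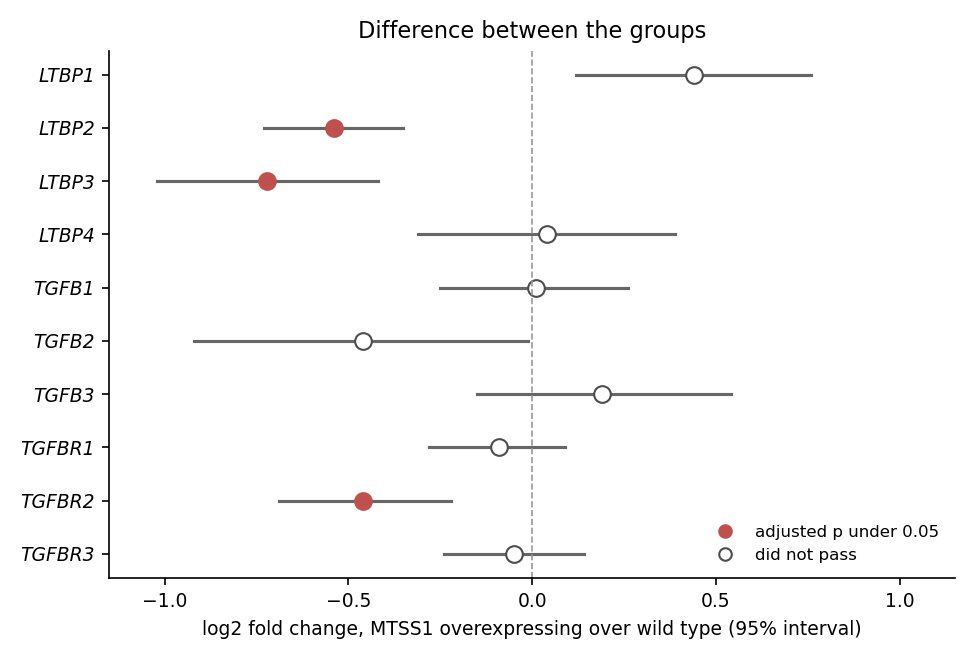
Log2 fold change of MTSS1-overexpressing over wild type cells for the 10 genes, with 95% intervals from the edgeR fit on 6 libraries. Filled points passed the test (LTBP2 at -0.54, LTBP3 at -0.72 and TGFBR2 at -0.46) and open points did not.

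Per kilobase of annotated exon, the genes kept nearly the same order of level in both groups. TGFB1 led with 97.2 ± 13.2 CPM per kilobase in overexpressing and 96.6 ± 9.53 in wild type cells (SD, n = 3 each), followed by LTBP4 with 35.9 ± 6.29 and 34.9 ± 6.12. TGFBR2 came next with 12.7 ± 1.31 in overexpressing and 17.4 ± 1.66 in wild type cells, then LTBP2 with 10.7 ± 0.571 and 15.5 ± 1.10, whose libraries overlapped those of TGFBR2 in wild type cells. TGFBR1 (9.21 ± 0.108 and 9.81 ± 0.675) and TGFBR3 (8.57 ± 0.539 and 8.87 ± 0.517) followed, and their libraries overlapped in wild type cells too. LTBP3 had 4.16 ± 0.564 in overexpressing and 6.83 ± 1.03 in wild type cells, and LTBP1 4.65 ± 0.912 and 3.43 ± 0.140, so that the 2 overlapped in overexpressing cells and were apart in wild type cells. TGFB2 (2.04 ± 0.517 and 2.81 ± 0.474) and TGFB3 (1.59 ± 0.0467 and 1.39 ± 0.0973) were the lowest by mean. Libraries of TGFB2 overlapped those of TGFB3 in overexpressing cells and just touched those of LTBP1 in wild type cells. The order depends on the length used: with the longest annotated transcript LTBP3 stood at 9.65 in overexpressing and 15.8 CPM per kilobase in wild type cells, above LTBP1 (5.38 and 3.97) in both. With that length TGFB3 (2.88) lay above TGFB2 (2.08) in overexpressing cells and below it in wild type cells (2.52 and 2.86).

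Each member was also read against its surroundings on the chromosome. The 50 nearest tested genes of each member had a median log2 fold change between -0.07 (around LTBP3) and 0.12 (around TGFBR2). Relative to that local median, LTBP2, LTBP3 and TGFBR2 still passed the test (edgeR adjusted p = 0.0094, 0.043 and 0.027), in a fit that called 1.32% of all tested genes as lower and 2.1% in either direction. Without both replicates numbered 1, which leaves 2 libraries a group, none of the 10 genes passed (edgeR adjusted p = 0.071, 0.061 and 0.13 for these 3, with log2 fold changes of -0.52, -0.83 and -0.53). That smaller fit called 0.807% of its genes, and DESeq2 on all 6 libraries called the same 3 members among 7.79% of all tested genes. RLE size factors called them among 4.25%, and without a filter on low counts LTBP1 was called with them, as higher, among 5.19% of 28676 genes.

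**Figure D4:**
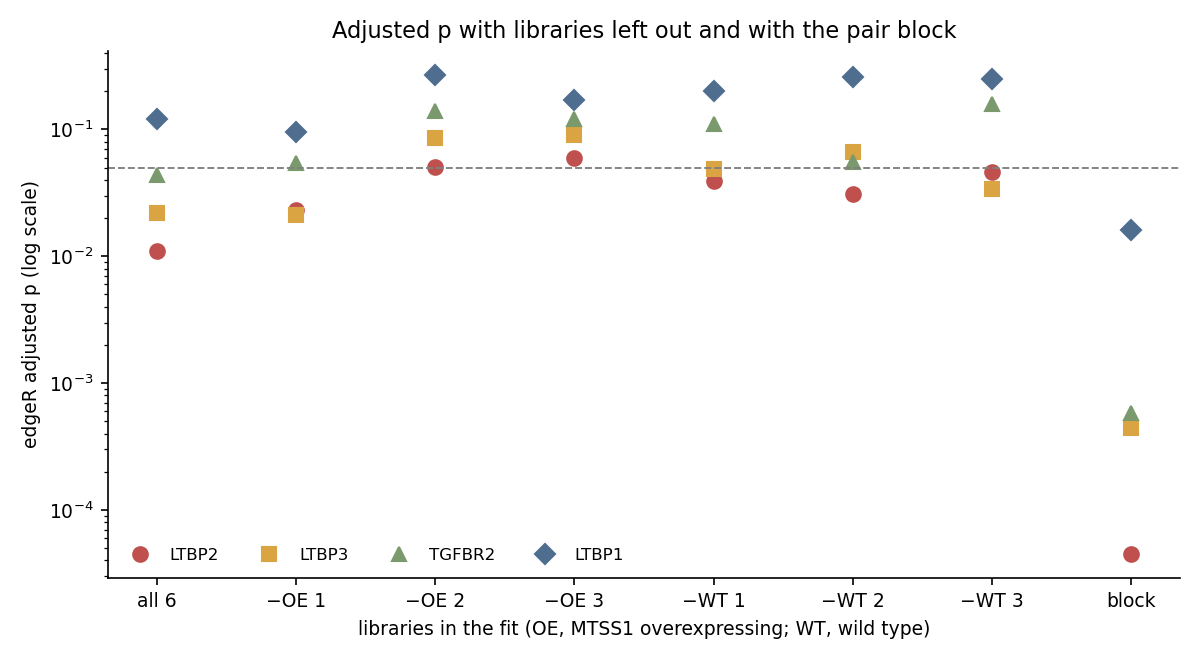
EdgeR adjusted p (log scale) of LTBP2, LTBP3, TGFBR2 and LTBP1 with all 6 libraries, with each library left out in turn (OE, MTSS1 overexpressing; WT, wild type) and with neighbouring title numbers as a block. The dashed line is the threshold of 0.05. TGFBR2 lies above it in all 6 fits without a library, LTBP2 in 2 and LTBP3 in 3, and all 4 genes lie below it with the block.

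For each of the 3 classes, the genes with the most similar pattern to the member with the smallest adjusted p were found by the root mean square difference of log2 CPM, centred on each gene's mean, over the 6 libraries. Candidates were the 10929 tested genes with a symbol and a mean of at least 5 CPM. Nearest to LTBP2 were MSN, encoding moesin, which links actin to the membrane (0.042), the ceramidase gene ACER3 (0.046) and the apoptosis inhibitor gene XIAP (0.052). Their log2 fold changes were -0.50, -0.54 and -0.47, which the choice by likeness over the same libraries places near that of LTBP2. Nearest to TGFBR2 were the RNA-binding protein gene RBMS1 (0.040), PTS of tetrahydrobiopterin synthesis (0.045) and the kinase gene UHMK1 (0.047). Nearest to TGFB2 were CPEB3 (0.086), SKIL (0.087) and ARAP2 (0.089). SKIL encodes SnoN, a repressor that binds SMADs. These values describe likeness over 6 libraries, which differ by group and by the setting apart of both replicates numbered 1.

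Other genes of the pathway were read from 5 lists. Their counts stand against 1.82% higher and 2.45% lower over all tested genes, and with the block against 10.7% higher and 12% lower. Among the 16 activators and processing enzymes of latent TGF-β, 15 were tested, 3 fell (2.45% of all tested genes did), none rose and 12 did not pass (6 fell with the block, where 12% of all tested genes did). The median log2 fold change of the tested genes was -0.26. MMP14, a membrane-bound protease that cleaves latent complexes, fell to 53.0 ± 3.63 CPM in overexpressing cells, against 115 ± 15.1 CPM in wild type cells (SD, n = 3 each; log2 fold change -1.12, edgeR adjusted p = 0.0016). FURIN, which cuts the TGF-β precursor, fell to 56.7 ± 5.66 CPM, against 82.1 ± 6.81 CPM in wild type cells (log2 fold change -0.54, edgeR adjusted p = 0.023). PLAU, the urokinase that generates plasmin, fell to 422 ± 56.2 CPM, against 619 ± 90.2 CPM in wild type cells (edgeR adjusted p = 0.047). The gelatinase gene MMP2 stood at 2.78 ± 0.590 CPM in overexpressing and 5.38 ± 0.497 CPM in wild type cells, just outside the threshold (edgeR adjusted p = 0.052, with the block 0.0073). The 50 nearest tested genes of FURIN, on chromosome 15, had a median of -0.31, and relative to these FURIN had a log2 fold change of -0.22 and did not pass (edgeR adjusted p = 0.34). PLAU kept its fold change relative to its own neighbours, at -0.56 against -0.55, with an edgeR adjusted p of 0.065 in that fit. Each of these 2 calls was kept in only 1 of the 6 fits without a library, and that of MMP14 in all 6.

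Among 12 matrix anchors and partners of latent complexes, 7 were tested, 1 rose, none fell and 6 did not pass (2 rose and 1 fell with the block). Fibronectin, FN1, on which LTBP1 is laid down, rose to 53.3 ± 7.99 CPM in overexpressing cells, against 35.9 ± 3.40 CPM in wild type cells (log2 fold change 0.57, edgeR adjusted p = 0.038; lost in each of the 6 fits without a library). The fibrillin gene FBN1, to whose protein LTBPs bind, stood at 86.0 ± 10.9 CPM in overexpressing and 98.1 ± 14.4 CPM in wild type cells (edgeR adjusted p = 0.46). The microfibril genes MFAP2 and MFAP5 did not pass, with log2 fold changes of 0.45 for MFAP2 (edgeR adjusted p = 0.12, with the block 0.0045) and -1.70 for MFAP5 (0.077, with the block 0.014). MFAP5 was near the limit of detection, with 27 counts over the overexpressing and 105 over the wild type libraries.

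Of the other receptors and coreceptors of the superfamily, 9 of 12 were tested and none passed, also with the block. At an unadjusted p under 0.05 the count was 0 with edgeR, and DESeq2 called 0. The nearest to the threshold was ACVR1, an activin and BMP type I receptor gene, at 40.2 ± 3.72 CPM in overexpressing and 45.6 ± 1.96 CPM in wild type cells (edgeR adjusted p = 0.38). BMPR2, the BMP type II receptor, had a log2 fold change of -0.13, ACVR1C of 0.22 and ACVR2B of 0.12 (edgeR adjusted p = 0.42, 0.52 and 0.54).

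All 21 listed SMADs and regulators were tested and none passed (1 rose and 2 fell with the block). At an unadjusted p under 0.05 the count was 3 with edgeR, and DESeq2 called 2, SMAD3 and SKIL. The signal transducer gene SMAD3 stood at 202 ± 28.9 CPM in overexpressing and 266 ± 16.9 CPM in wild type cells (log2 fold change -0.40, edgeR adjusted p = 0.081; 0.00055 with the block). Its neighbours on chromosome 15 had a median of -0.24. Set against that median, the change of SMAD3 shrank to -0.16, and edgeR gave it 0.56 as adjusted p. SKIL had a log2 fold change of -0.50, and NEDD4L, a ubiquitin ligase that limits SMAD2 and SMAD3, of 0.29 (edgeR adjusted p = 0.096 and 0.085; 0.011 and 0.0069 with the block). LEMD3, which binds SMADs at the nuclear membrane, had one of -0.17 (edgeR adjusted p = 0.33).

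Of 24 genes known as TGF-β targets, 20 were tested, 1 rose, 2 fell and 17 did not pass, with a median log2 fold change of -0.36 (3 rose and 10 fell with the block, where 10.7% of all tested genes rose and 12% fell). BHLHE40, encoding a transcriptional repressor, fell to 23.2 ± 1.91 CPM in overexpressing cells, against 41.5 ± 0.409 CPM in wild type cells (log2 fold change -0.84, edgeR adjusted p = 0.0039). CDKN1A, encoding the cell cycle inhibitor p21, fell by 0.83 on the log2 scale (edgeR adjusted p = 0.0044), and both kept their call in each of the 6 fits without a library. ACTA2, encoding smooth muscle actin, rose to 11.4 ± 0.359 CPM, against 7.05 ± 0.164 CPM in wild type cells (edgeR adjusted p = 0.024; lost in each of those 6 fits). Many of these genes also respond to other pathways, and no readout of SMAD phosphorylation or of secreted ligand is among the data used here.

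**Figure D5:**
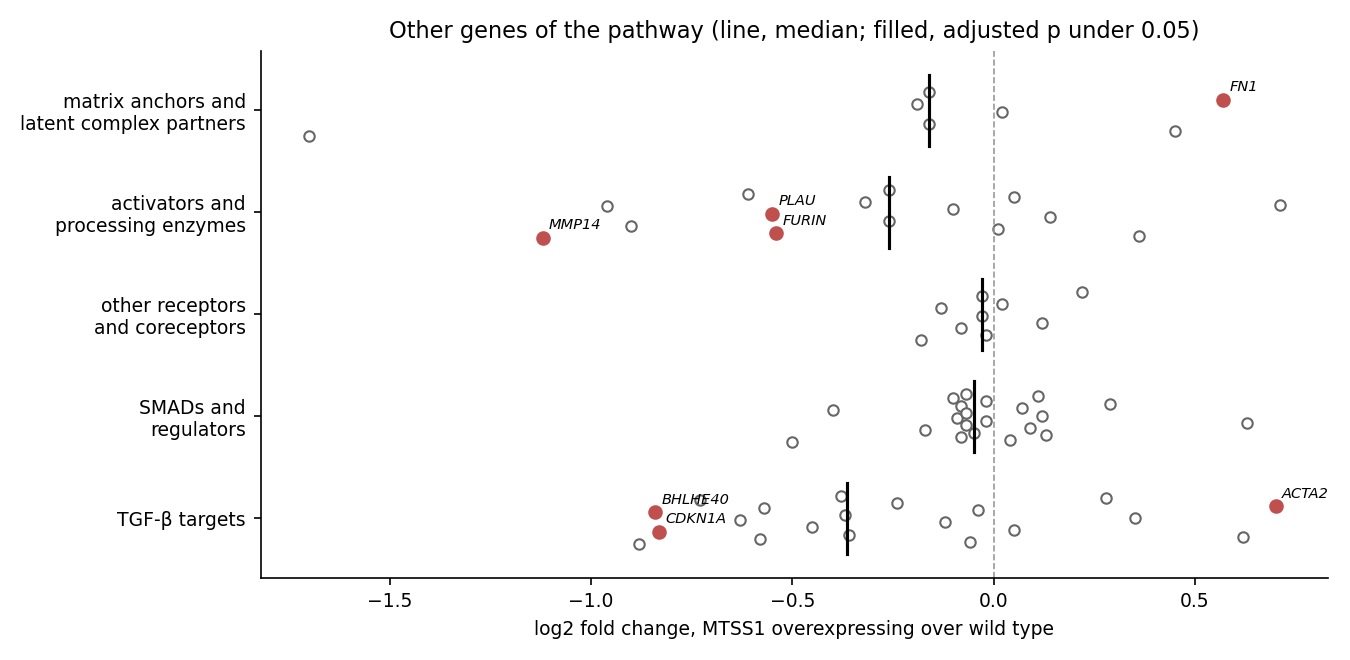
Log2 fold change of MTSS1-overexpressing over wild type cells for the tested genes of the 5 other pathway lists. Each point is a gene (height within a row has no meaning), vertical lines are medians, and filled points passed the test: FN1 among matrix anchors, MMP14, FURIN and PLAU among activators, and CDKN1A, BHLHE40 and ACTA2 among targets.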

How the data were processed

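RNA was purified with oligo(dT) beads, made into directional libraries and read for 50 cycles in single-read mode, per the labels' protocols. The deposited values are raw read counts per Ensembl gene, which the authors made with bcl2fastq, HISAT2 2.1.0 and HTSeq on GRCh38, per the submitters' processing notes; neither the strand setting nor the annotation release is known here. Symbols came from a gene name table (56105 of 64253 identifiers) and GENCODE release 29 (486 more), which also gave coordinates and exon lengths for 56591.

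EdgeR 4.0.16 in R 4.3.3 was run on these counts (filterByExpr, TMM, quasi-likelihood test, 3 against 3 libraries), with p-values adjusted by Benjamini-Hochberg over 16091 genes and called under 0.05. The biological coefficient of variation was 0.162. Intervals are 95% from the fit. Log2 CPM was computed with a prior count of 2. Any 2 replicates of a group differed beyond sampling noise (chi-square over its degrees of freedom, 14.7 to 28). Alternatives were DESeq2 1.42.0, RLE size factors, no count filter, each library left out, both replicates numbered 1 left out, an offset by the 50 nearest tested genes, and other gene lengths for the shares.

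The labels number the libraries, and each overexpressing library follows a wild type library by 1. Deviations from the group means correlated at 0.66, 0.34 and 0.38 in these 3 neighbouring pairs and at -0.40 to 0.10 in the other combinations. Such deviations cancel out within a group, so part of this contrast is built in. The pairs were used as a block in an alternative fit only, and the labels do not say what neighbouring numbers share.

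The members, the 5 pathway lists and the marker lists were chosen with earlier results of these data known. Of each list, up to 4 tested genes with the smallest adjusted p are named, passed or not, with the 10 members, MTSS1, the called list genes, genes at 0 or untested, marker genes that carry their list's sum, and the 3 genes most like the leading member of each class. One gene that this rule names is not reported here.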

Additional observations from a re-analysis of the deposited data

How the results depend on the processing

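The number of changed genes was 688. It was 684 with RLE size factors, 1253 with DESeq2, 1489 with no count filter, 3651 with the replicate block by neighbouring title numbers, 338 with the neighbour offset, 132 without both replicates numbered 1, and 145 to 346 when 1 library was left out. Of the 10 members 3 passed, with RLE size factors, DESeq2 and the offset too; 4 passed with the block and with no count filter (LTBP1 added, higher; edgeR adjusted p = 0.016 and 0.022), 0 without both replicates numbered 1, and 0 to 2 when 1 library was left out. The block changed no other member's call. With it LTBP2, LTBP3 and TGFBR2 had edgeR adjusted p of 4.5e-05, 0.00044 and 0.00058, where 22.7% of all tested genes were called. Over 120 combinations of member and alternative, 96 kept direction and side of the threshold, 14 lost the call, 2 gained it and 8 changed sign. Those 8 belong to uncalled members near 0: the log2 fold change of LTBP4 was -0.08 without MTSS1 overexpressing replicate 1, -0.10 without wild type replicate 3 and -0.01 without both replicates numbered 1, and spanned -0.10 to 0.17 over the fits without 1 library. That of TGFB1 was -0.10, -0.07 and -0.04 in the same fits, up to 0.08 in the others without 1 library, and that of TGFBR3 was 0.01 without MTSS1 overexpressing replicate 1 and 0.00 without wild type replicate 2. The cause of these shifts was not tested. The 3 share differences kept their sign under every length used and with any 1 library left out (LTBP1 1.96 to 3.84, TGFB1 0.205 to 1.00 and TGFBR2 -7.80 to -4.83 percentage points). The widest interval of the 7 uncalled members was that of TGFB2, at -0.92 to -0.01. With 3 libraries a group, small changes of these members could not be detected, and larger ones could be missed too. TGFB2 did not pass with a log2 fold change of -0.46, the same as that of TGFBR2, which was called.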

Other observations

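Pathway genes with too few counts to be tested are given as counts summed over the 3 libraries of each group, with no comparison made. SNAI2, encoding the repressor Slug, had 3 counts in MTSS1-overexpressing and 35 in wild type cells. The matrix gene EMILIN1, whose product restrains TGF-β processing, had 13 and 30 counts, and the basement membrane collagen genes COL4A1 and COL4A2 had 6 and 22 and 4 and 8 counts. LRRC32, which encodes GARP, the anchor of latent TGF-β on regulatory T cells and platelets, had 12 counts in overexpressing and 9 in wild type cells, and NRROS, its counterpart in microglia, 1 and 2. ELN, encoding elastin, had 1 and 0 counts. Among receptors, the endothelial type I receptor gene ACVRL1 had 8 and 10 counts and the pseudoreceptor gene BAMBI 14 and 8. NOX4, a TGF-β-induced oxidase gene, had 16 and 7. ADAMTSL2, PLG and AMHR2 were listed at 0 counts in all 6 libraries.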
